A study of Mus musculus with 2 samples.

Results

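Cd40, Cd80 and Cd86 encode 3 surface proteins through which a dendritic cell signals to a T cell beyond the antigen itself. They were taken from the deposited expression table by gene symbol, and all 3 were found, each on 1 of the table's 4898 gene rows. The cells were DC1940, a line of CD8α+ dendritic cells from C57BL/6 mice whose genotype is given as wild type. They carried an empty vector and had been activated with pIC, which mimics the double-stranded RNA of viruses and is an agonist of TLR3. There were 2 libraries in a single group, and the duration of activation was not stated for them. The table held 1 value per gene over both libraries, in FPKM (sequenced fragments per length of transcript and per depth of sequencing). Levels of different genes can be set side by side only as far as the lengths used are right. Each value below is therefore the authors' own, with no SD, no number of replicates and no test, and no difference between genes could be set against the spread between libraries.

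Full activation of a T cell needs a costimulatory signal beside the contact of its antigen receptor with a peptide on MHC. CD80 and CD86, the B7 ligands, give that signal by binding CD28 on the T cell, and the inhibitory receptor CTLA-4 competes for both. CD40, a receptor of the TNF receptor superfamily, receives a signal in the other direction, from CD40 ligand on helper T cells, and passes it through TRAF adaptors to NF-kB. In cross-presenting dendritic cells, signalling through CD40 is known for its part in the priming of cytotoxic T cells. Both B7 ligands and CD40 are used as surface signs of dendritic cell maturation.

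All 3 genes stood high among the rows of the table, with Cd40 above both B7 ligands in FPKM. The table's sheet is named for genes that differ with pIC, as set out below. The median, ranks and shares of rows therefore hold within this table alone, not among all expressed genes. Cd40 had 516 FPKM, Cd86 186 FPKM and Cd80 152 FPKM, while the median row of the table had 9.68 FPKM and the upper quartile was 33.4 FPKM. The levels were thus 53.3, 19.2 and 15.7 times that of the median row. Cd40 held rank 63, with 1.27% of rows above it, Cd86 rank 253, with 5.14% above, and Cd80 rank 328, with 6.68% above. All 3 were at 100 FPKM or more, a level reached by 9.6% of all rows.

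**Figure D1:**
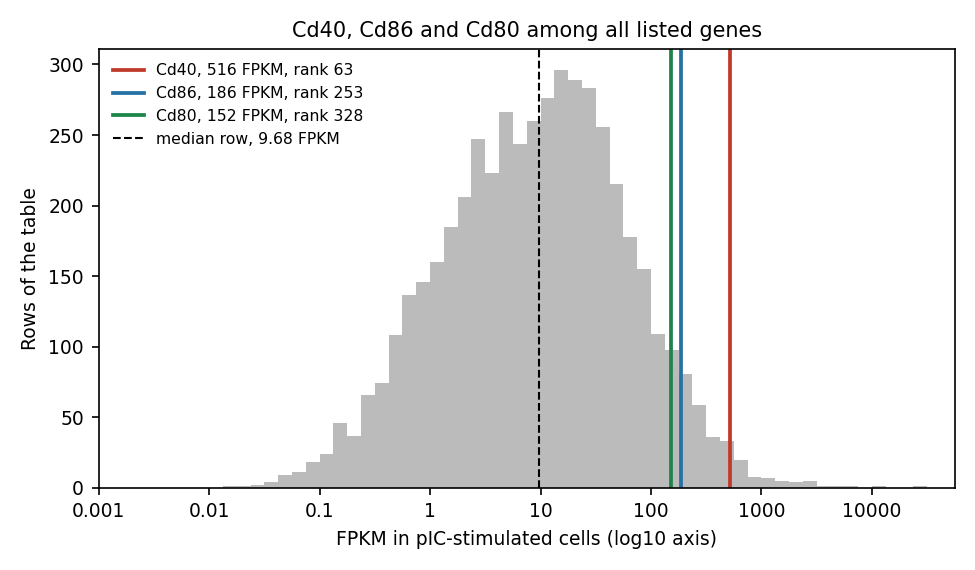
Number of table rows (vertical axis) by FPKM in pIC-stimulated cells (horizontal log10 axis), without the 5 rows listed at 0. Coloured lines mark Cd40 at 516, Cd86 at 186 and Cd80 at 152 FPKM, all in the right tail of the distribution, and the dashed line marks the median row at 9.68 FPKM.

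The order was Cd40, then Cd86, then Cd80. On the FPKM scale, Cd40 was 3.39 times Cd80 and 2.77 times Cd86, log2 ratios of 1.76 and 1.47. Cd40 was also 1.53 times the sum of both B7 ligands, 338 FPKM. Cd86 and Cd80 were close, with a ratio of 1.22 (log2 0.29), and whether such a gap exceeds the spread between libraries could not be measured. These are levels of RNA per transcript length, not of protein on the cell surface. The ratios therefore depend on the lengths used, which are not known for Cd40. The share of annotated exonic bases outside the gene's row was 38.3% for Cd40, 54.1% for Cd80 and 0.109% for Cd86. How far this alters the ratios or the order was not tested. In a bulk sample, fewer cells that express a gene and less RNA per cell cannot be told apart.

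The table's sheet is named for genes differing between unstimulated and pIC-stimulated cells. The submitters chose that name. Neither the threshold and test they used nor the direction of each difference is known here. Of all RefSeq protein-coding genes, 22.2% were listed, and all 3 genes were among them. Being listed was the condition for choosing them, so it is no finding about them. The same 22.2% is the share to set beside each count of listed genes below. Those gene lists were chosen with earlier results of these data known, so their counts are no finding either.

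Cd40 lies on chromosome 2 of mm10, and its row spans 165055636 to 165071654 on the plus strand (ENSMUSG00000017652.16). The row carried 5 RefSeq accessions, all of 1 gene, so its value covers several transcripts. The GENCODE M21 transcripts matched to these accessions have 8 or 9 exons and lengths of 668, 1596 and 2986 bases. An FPKM value divides by length, so the level of a gene with several transcripts depends on their lengths and on how fragments were shared. This was not measured. Of 3406 exonic bases that GENCODE annotates for Cd40, 1303 (38.3%) lay outside the row's interval, 1294 of them past its 3′ end. The GENCODE transcript of 2986 bases is longer than the exonic part inside the interval. The lengths that the value was divided by are therefore not known.

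Cd86 lies on chromosome 16 on the minus strand, in a row from 36603869 to 36666077 (ENSMUSG00000022901.13). Its single accession matched a transcript of 8 exons and 2539 bases. The row contained all but 4 of the 3661 exonic bases that GENCODE annotates for the gene, in 4 transcripts. No other GENCODE gene overlapped the intervals of Cd40, Cd86 or Cd80, so none of the 3 values shares its interval with a neighbouring gene.

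Cd80 lies on the same chromosome on the plus strand, in a row from 38458933 to 38486932 (ENSMUSG00000075122.5). Its single accession matched a transcript of 5 exons and 1701 bases. GENCODE annotates 3 Cd80 transcripts with 3703 exonic bases in all, of which 2003 (54.1%) lay outside the row's interval, 1851 of them past the 3′ end and 152 before the 5′ start. How far fragments from the exons outside the interval would alter the value of Cd80 was not tested.

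The bases before the RefSeq transcript start of Cd80 are shown because the row that gives its value starts there. GENCODE annotates the gene from 38455561, upstream of these bases, so they lie within the annotated gene. Bases before that upstream position were not searched. The stretch shown runs 5′ to 3′ over chr16:38458683-38458932 on the plus strand, from RefSeq's GRCm38.p6, and ends at the base before the row's first base. Capitals mark a match to TGANTCA, a loose form of the AP-1 motif of the FOS and JUN factors that allows any base at its centre. The match lies from 42 to 36 bases before the start and has T at its centre. Binding of these factors was not tested.
Cd80: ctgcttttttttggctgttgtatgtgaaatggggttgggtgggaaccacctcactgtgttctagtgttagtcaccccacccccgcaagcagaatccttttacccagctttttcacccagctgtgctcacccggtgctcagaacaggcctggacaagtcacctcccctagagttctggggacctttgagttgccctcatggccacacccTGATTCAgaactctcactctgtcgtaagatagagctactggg

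Both strands were searched for 6 motifs from 250 bases before to 50 after the start. The loose AP-1 motif was held by 7.81% of 32851 RefSeq promoters of that length. TATAAA had 1 match on the minus strand, from 4 to 9 bases after the start, and was held by 13.6% of promoters. The 2 matches did not overlap. No match was found for the kB consensus of NF-kB, held by 8.46% of promoters, or for the interferon-response core, GAAA repeated after a gap of 2 bases, held by 3.44%. The STAT motif TTCNNNGAA and the PU.1 motif GAGGAAGT also had no match, and 8.3% and 3.2% of promoters held them. The absence of these letters from 300 bases says nothing about more distant elements or about bases before the upstream start that GENCODE annotates. The stretch shown has 52.8% G and C and 3 CpG dinucleotides, beside medians of 52.4% and 6 over all promoters.

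Of the 8 B7 family ligands, 5 were listed, beside 22.2% of all RefSeq protein-coding genes. Of these 5 ligands, Cd80 and Cd86 included, 3 stood above 100 FPKM. Beside Cd86 and Cd80, Icosl, which encodes the ligand of the T cell receptor ICOS, had 159 FPKM, between both in level. Cd274, which encodes the inhibitory ligand PD-L1, had 37.6 FPKM. Vsir, which encodes the checkpoint molecule VISTA, had 1.35 FPKM. The 3 highest B7 ligands thus lay within 33.8 FPKM of one another, and the inhibitory members listed lay below them. The second PD-1 ligand gene Pdcd1lg2, Cd276 and Vtcn1 were not listed, so their levels are not analysed here.

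The receptors for these ligands are mainly T cell molecules, and 2 of the 5 looked for were listed. Ctla4 had 1.61 FPKM, and Icos had 2.83 FPKM in a row that carried its accession under another name. Cd28, Pdcd1 and Btla were not listed. The median of the 2 listed receptors was 2.22 FPKM, below the 9.68 FPKM of the median row.

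Within the TNF receptor superfamily, Cd40 was the highest of the 9 genes listed, out of 13 looked for, and the only one at 100 FPKM or more. Next was Tnfrsf1a, which encodes the main receptor for TNF, at 78.5 FPKM. Tnfrsf1b, for the other TNF receptor, had 23.6 FPKM, and Ltbr, for the lymphotoxin beta receptor, 14.04 FPKM. Tnfrsf11a, which encodes RANK, had 13.1 FPKM and Tnfrsf13c, for the BAFF receptor, 5.43 FPKM. The lowest of the listed values were those of Tnfrsf4 (OX40) at 1.06 FPKM, Tnfrsf18 (GITR) at 0.939 and Tnfrsf9 (4-1BB) at 0.593, which encode costimulatory receptors of T cells. Cd27, Tnfrsf8, Tnfrsf14 and Fas were not listed, so their levels are not analysed here. The median of the 9 listed receptors, Cd40 included, was 13.1 FPKM.

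The TNF superfamily ligands had 6 of 10 genes listed, with a median of 11.7 FPKM and none at the level of Cd80. Tnfsf15, which encodes TL1A, had 79.0 FPKM, and Tnfsf9, for the ligand of 4-1BB, had 64.7 FPKM. Tnfsf8, for the CD30 ligand, had 21.6 FPKM. Cd70, for the ligand of CD27, had 1.69 FPKM, Tnfsf13b (BAFF) 0.721 and Tnfsf10 (TRAIL) 0.716. Cd40lg, which encodes the partner of CD40 on T cells, was not listed, nor was the OX40 ligand gene Tnfsf4.

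**Figure D2:**
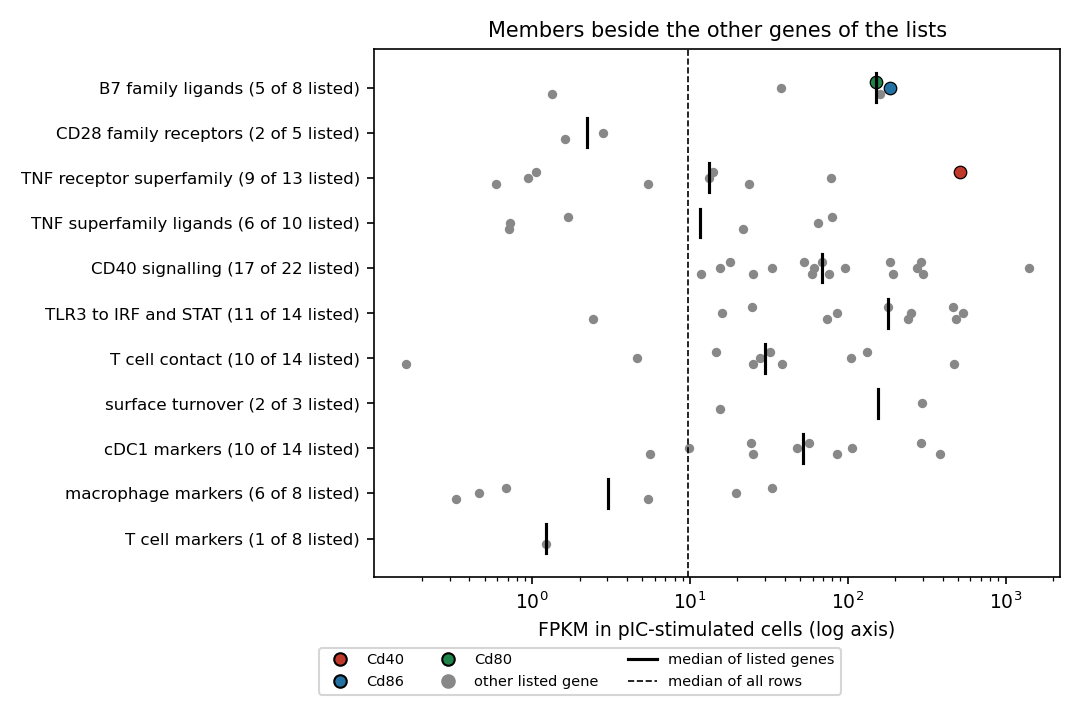
FPKM in pIC-stimulated cells (horizontal log axis) of every listed gene, by gene list (rows, with the number listed of the number looked for). Cd40, at 516 FPKM, stands to the right of the other TNF receptors, while Cd86 and Cd80 lie beside Icosl; black bars are list medians and the dashed line is the median of all table rows.

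Of 22 genes that act below CD40, 17 were listed, beside 22.2% of all RefSeq protein-coding genes. The 17 levels ran from 11.8 to 1401 FPKM, with a median of 68.7 FPKM. The adaptor gene Traf1 had 276 FPKM, above the TRAF genes that bind the tail of CD40 more directly: Traf2 had 33.0 FPKM, Traf6 17.9 and Traf3 11.8. Map3k14, which encodes NIK, the kinase of the non-canonical NF-kB path, had 76.3 FPKM. The ubiquitin ligase genes Birc3 and Birc2, whose products restrain NIK together with TRAF2 and TRAF3, had 184 and 25.1 FPKM.

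The NF-kB subunits of the non-canonical path, Relb at 299 FPKM and Nfkb2 at 292 FPKM, stood above those of the canonical path, Nfkb1 at 193, Rel at 95.5 and Rela at 68.7 FPKM. The IkB kinase gene Ikbkb had 60.8 FPKM. The feedback inhibitor gene Nfkbia had 1401 FPKM, the only gene of this list above Cd40, and Tnfaip3 (A20) had 52.5 FPKM. The row of Nfkbia has a wide interval, 55280814 to 55492647 on chromosome 12, and was not checked for overlap with other genes. Traf5, Map3k7, Chuk, Ikbkg and Cyld were not listed.

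A list of genes from TLR3 to the interferon response factors, with the myeloid factor gene Spi1, had 11 of 14 members listed and a median of 181 FPKM. Without Spi1, left out after the values were seen, the median was 133 FPKM. Tlr3 itself had 85.7 FPKM, the kinase genes Tbk1 and Ripk1 had 24.9 and 16.04 FPKM, and Ikbke 2.43 FPKM. Spi1, which encodes PU.1, had 534 FPKM and was the only gene of this list above Cd40. The interferon regulatory factor genes Irf7, Irf5 and Irf1 had 487, 466 and 241 FPKM. Stat2 had 181 FPKM and Irf9 74.3 FPKM, genes of factors that act below the interferon receptor. The adaptor gene Ticam1 (TRIF), Irf3 and Irf8 were not listed.

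Of the genes known to set how long CD86 stays on the surface, 2 of 3 were listed. MARCH1 is a ubiquitin ligase that marks CD86 and MHC class II for removal, and CD83 opposes it in dendritic cells. Cd83 had 294 FPKM, above both B7 ligands and below Cd40, and the MARCH1 gene had 15.4 FPKM. The MARCH8 gene was not listed.

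Markers of the labelled cell type were looked up, but the sheet is named for genes that differ with pIC. Whether a marker is listed therefore cannot check the cell type, and an unlisted marker may still be expressed. Of 14 markers of CD8α+ dendritic cells, 10 were listed, with a median of 52.4 FPKM. Of all RefSeq protein-coding genes, 22.2% were listed. Xcr1, which encodes the receptor for the chemokine XCL1, had 387 FPKM, and Cd8a had 292, with Ly75 at 106 and Clec9a at 57.04 FPKM. Itgax had 47.9 FPKM, Cd24a 24.9 and Zbtb46 24.3, and Tlr3 is given above. Cadm1, at 9.81 FPKM, was close to the median row and Flt3, at 5.62 FPKM, below it, while Batf3, Irf8, Itgae and Id2 were not listed. B cells and macrophages also carry CD40, CD80 and CD86. Of 8 B cell markers 0 were listed, so their levels are not analysed here. Of 8 macrophage and monocyte markers 6 were listed, with a summed level of 59.7 FPKM, from Cd14 at 0.329 and Adgre1 at 0.460 to Ccr2 at 19.6 and Cd68 at 33.2. Of 8 T cell markers 1 was listed, Lck, whose row stood at 1.22 FPKM and also carried the accession of another gene. The part of such cells in the levels of Cd40, Cd80 and Cd86 was not tested.

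Cd86 and Cd80 are neighbours on the scale of the chromosome, 1.79 Mb apart, with 25 protein-coding genes of GENCODE M21 between them. The table listed 6 rows in that gap, from 5.13 to 780 FPKM, with a median of 42.0 FPKM. Only Cox17, which encodes a copper chaperone of cytochrome oxidase, stood above Cd80 there, at 780 FPKM. The nearest listed gene to Cd86 was Ildr1, 27.9 kb away, at 52.2 FPKM. The nearest to Cd80 was Pla1a, which encodes a phospholipase, 25.8 kb away, at 31.9 FPKM.

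Within 1 Mb of Cd86, on the side away from Cd80, stood Parp14 at 207 FPKM, Parp9 at 125 and its partner Dtx3l at 119 FPKM. Parp9 and Dtx3l share 1 interval in the table, and Parp14 has its own. Parp14 was the only 1 of the 9 listed genes within 1 Mb that exceeded Cd86. Within 1 Mb of Cd40 there were 14 listed genes, with a median of 11.7 FPKM. The highest was Stk4, which encodes the kinase MST1, at 120 FPKM, less than Cd40 itself, and the nearest was Ncoa5, 20.9 kb away, at 31.04 FPKM.

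**Figure D3:**
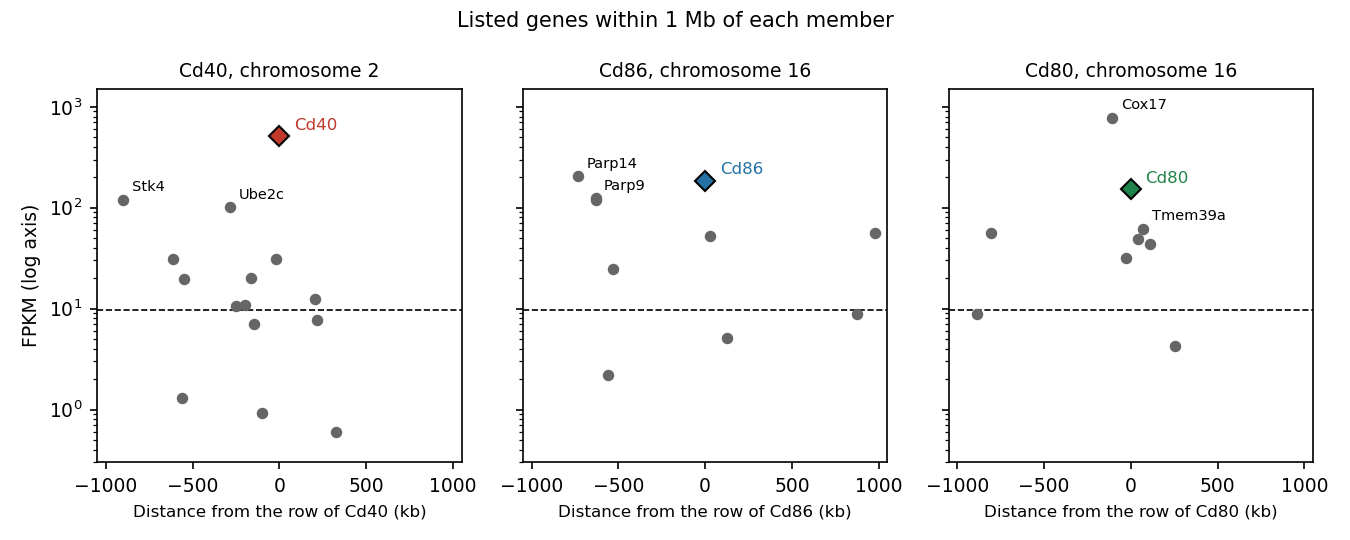
FPKM (vertical log axis) of the listed genes within 1 Mb of Cd40, Cd86 and Cd80 by distance from the gene's row in kb (horizontal axis, negative to the left on the chromosome); the dashed line is the median of all rows. Cd40 at 516 FPKM lies above all 14 of its listed neighbours, Cd86 below Parp14 alone and Cd80 below Cox17 alone.

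With 1 value per gene, the likeness of a pattern across conditions could not be computed, and only closeness of level can be given. The protein-coding rows next to Cd40 in level were the ribosomal protein gene Rpl36a, at 519 FPKM, and the guanylate-binding protein gene Gbp2, at 511 FPKM. The row above Cd86 was Phf11a, at 187 FPKM. Next to Cd80 stood the microtubule regulator gene Stmn1 and Rrm2, which encodes a subunit of ribonucleotide reductase, both at 152 FPKM.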

How the data were processed

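Poly(A) RNA of 2 libraries was sequenced, per the labels' protocols. Build mm10, Cufflinks 2.2.1, TopHat2 2.1.0 and FastQC 0.11.5 are named in the submitters' processing notes. The values are the FPKM deposited by the authors, per the file headers, with 1 value per gene over both libraries. How the libraries were combined is not stated, and neither depth nor counts are known, which leaves out intervals and detection limits. Columns of other samples numbered 0, and 1 row was not used here.

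Members and gene lists were chosen with earlier results of these data known. Genes were matched by symbol, by older symbol or by RefSeq accession. Of the rows, 4802 carried accessions of 1 RefSeq gene, 74 of several and 22 of none, and 4779 were those of protein-coding genes (GRCm38.p6). Genes of the lists were named by the rule that any listed member may be given, the highest and lowest at least, with the 1 protein-coding row above and below each of Cd40, Cd80 and Cd86, and 2 genes that it names are not reported here. Start positions had 1 added to count from 1. Overlaps and exons came from GENCODE M21 and were computed for Cd40, Cd80 and Cd86 alone. The rows of other genes, some with wide intervals (Nfkbia, Irf5 and Vsir), were not checked for overlap. Ranks, medians and ratios were computed without a pseudocount. RefSeq promoters were matched by symbol for 1 of the 3 genes, Cd80, and not for Cd40 and Cd86. The planned protein comparison was not made. The rank and motif searches were tested on simulated data. Alternatives were floors on FPKM, other sets of rows, pseudocounts and a shorter promoter window. Computations ran in Python 3.11.15 with SciPy 1.17.1, numpy 2.4.6, pandas 2.3.3 and matplotlib 3.10.9.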

Additional observations from a re-analysis of the deposited data

How the results depend on the processing

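The log2 ratio of Cd40 over Cd80, 1.762 with no pseudocount, was 1.755 and 1.729 with 1 and 5 FPKM added. That of Cd40 over Cd86 was 1.448 with 5 FPKM added. That of Cd86 over Cd80 was 0.288 and 0.281 with 1 and 5 FPKM added. Among rows at 5 FPKM or more, by construction fewer, 2.05% stood above Cd40, 8.34% above Cd86 and 10.8% above Cd80, and among rows at 1 FPKM or more 5.99% stood above Cd86 and 7.77% above Cd80. With members under 1 FPKM left out, the median of the TNF superfamily ligands was 43.2 FPKM and that of the macrophage markers 19.6 FPKM, and 37.5% of the macrophage markers then counted as listed. Without Spi1, an alternative chosen after seeing the data, the median of the list from TLR3 to IRF and STAT was 133 FPKM. Of 53 alternatives, 13, all given above, moved a value beyond its counting interval, by over 1.5 times or, for a log2 ratio, in its printed digits. The counting interval is the 95% Wilson interval of a share of rows or genes, used only as a cut-off. It measures neither sampling error, since the rows are fixed, nor the spread between libraries. An equal pseudocount cannot change the order of 3 single values, so the alternatives do not bear on it. The T cell markers had no value over rows with accessions of 1 gene, since none was left. Leaving out a library could not be run, since the table holds 1 value over both. No paired analysis was possible because both libraries belong to a single group and share each value. What depth limits cannot be said, since it is unknown.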

Other observations

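Other molecules of the contact between dendritic cell and T cell were spread over a wide range. Of 14 looked for, 10 were listed, with a median of 30.1 FPKM. Icam1, which encodes the adhesion ligand of the integrin LFA-1, had 475 FPKM, the only 1 of the 10 above Cd86. Cd44, which encodes a receptor for hyaluronan, had 132 FPKM, and Nectin2, listed under its older symbol, 105 FPKM. Pvr had 32.1 FPKM, and the integrin gene Itgal, which encodes a chain of LFA-1, 38.1 FPKM. Of the SLAM family, Slamf7 had 28.0 FPKM, Cd48 14.7, Cd84 4.62 and Ly9 0.158 FPKM. The genes Icam2, Itgb2, Slamf1 and Alcam were not listed.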
